A study of Mus musculus with 4 samples.

Results

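Imprinted growth genes are a small group of genes that are copied from only the maternal or only the paternal chromosome and that set how fast a young animal and its progenitor cells grow. The 10 genes described here are Igf2, Dlk1, Grb10, Cdkn1c, Plagl1, Peg3, Ndn, Mest, H19 and Meg3. They were chosen by gene name, with earlier results of the same comparison known, so their differences are given as a description. Where a member passed the threshold of the comparison over all features this is stated as a count beside the background, and it is no independent evidence about the gene. All 10 had probes on the array, 25 in total, and 9 of the 10 genes were among the 24518 features that entered the comparison. Igf2 did not enter it.

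Imprinting rests on DNA methylation laid down in the germ line, which silences 1 parental copy of a gene in the offspring. Most imprinted growth genes are high in the fetus and fall after birth, as several of them do together in the growing organs of mice. By and large, paternally expressed members such as Igf2 favour growth, and maternally expressed members such as Grb10, Cdkn1c and H19 restrain it. In fat tissue Dlk1 is known as a brake on adipocyte differentiation and Mest as a marker of expanding fat. The arrays measured total RNA of each gene and cannot tell the parental copies apart.

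The samples were adipocyte progenitors, the cells from which new fat cells form, which had been purified by FACS out of the subcutaneous fat of male FVB mice aged 4 weeks and lysed straight after the sort. There were 2 wild-type samples and 2 samples labelled Adamts1 transgenic, with no treatment in either group and each sample on 1 single-colour Agilent array. Adamts1 encodes a secreted matrix metalloprotease; the labels give neither the promoter that drives the transgene nor the number of animals behind a sample. Nor do they state that replicates are different animals, so p-values measure only the spread between these samples, which may be technical.

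All 4 arrays carried 59305 non-control spots, of which 47.0% to 57.0% were well above background, with the lowest share on wild-type array 1. Pearson correlations over the features compared were 0.984 between the wild-type arrays, 0.994 between the transgenic arrays and 0.977 to 0.984 across the groups. Adamts1 itself read 6.65 and 6.73 on the wild-type arrays and 6.77 and 6.82 on the arrays labelled transgenic, a log2 difference of 0.11 ± 0.09 (SE, 2 arrays a group) that was not called (limma, adjusted p = 0.573). Whether the transgene contains the sequence of this probe is not given in the labels, so the level does not check them. The progenitor markers were present: all 11 listed, among them Pdgfra, Ly6a and Cd34, were above background on every array.

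Peg3 and Grb10 were the members that passed the threshold of the comparison, in opposite directions. The 250 bases upstream of their transcription starts are shown because imprinting rests on methylation of CG dinucleotides. Whether the shown stretches are the ones that control the imprint of either gene was not determined here. The sequences are from RefSeq on GRCm38.p6, on the minus strand of the genome and written 5′ to 3′ towards the start, with every CG in capitals. Peg3 has 1 start in the table and Grb10 has 2.
Peg3, chr7:6730420-6730669: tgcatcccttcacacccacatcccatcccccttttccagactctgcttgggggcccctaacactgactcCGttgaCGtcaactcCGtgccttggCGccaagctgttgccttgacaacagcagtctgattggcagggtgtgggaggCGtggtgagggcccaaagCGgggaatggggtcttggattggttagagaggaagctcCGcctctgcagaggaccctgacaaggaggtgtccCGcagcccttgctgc
Grb10, CG-rich start, chr11:12037421-12037670: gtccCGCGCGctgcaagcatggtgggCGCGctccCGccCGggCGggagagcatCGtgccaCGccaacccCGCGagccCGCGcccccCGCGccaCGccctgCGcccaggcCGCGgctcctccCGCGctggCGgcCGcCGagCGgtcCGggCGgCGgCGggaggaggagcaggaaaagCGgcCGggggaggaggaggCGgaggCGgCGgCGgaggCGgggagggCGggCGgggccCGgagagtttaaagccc
Grb10, other start, chr11:12027972-12028221: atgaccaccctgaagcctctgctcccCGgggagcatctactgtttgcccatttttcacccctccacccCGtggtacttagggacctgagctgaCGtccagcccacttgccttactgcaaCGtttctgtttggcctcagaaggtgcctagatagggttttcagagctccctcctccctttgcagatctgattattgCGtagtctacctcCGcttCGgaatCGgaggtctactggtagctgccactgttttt

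The Peg3 stretch holds 8 CG, the CG-rich Grb10 stretch 40 and the other Grb10 stretch 8. Counted over windows of 300 bases, which add 50 bases after the start, Peg3 had 13 CG, a count met or exceeded by 37.9% of the 32851 windows in the table, and the CG-rich Grb10 window had 45, met or exceeded by 1.93%. The other Grb10 window had 9 CG, met or exceeded by 45.8%. In all, 8 members had 15 windows between them, with a median of 13 CG (range 1 to 45) against 7 for all windows, and 12 of the 15 lay above that median of all. The motif was the dinucleotide CG, which reads the same on both strands. No methylation was measured in this study, and the counts describe the letters of the windows alone.

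H19 and Meg3 are long noncoding RNAs, and their probes are shown because each RNA was read at several stretches, which gave different values. Coordinates are mm9, per the scanner files. The H19 probes match the minus strand of chromosome 7 and the Meg3 probes the plus strand of chromosome 12. No part is in capitals, since no motif was searched in them.
H19 probe used in the comparison, chr7:149761492-149761551: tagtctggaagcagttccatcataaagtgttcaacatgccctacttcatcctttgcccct
H19 neighbouring probe, chr7:149761693-149761752: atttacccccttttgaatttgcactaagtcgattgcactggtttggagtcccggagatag
H19 probe below background on every array, chr7:149762417-149762476: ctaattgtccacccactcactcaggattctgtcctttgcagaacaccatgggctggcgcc
Meg3 probe not used in the comparison, chr12:110799558-110799617: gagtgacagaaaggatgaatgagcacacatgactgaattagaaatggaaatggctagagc
Meg3 probe used in the comparison, chr12:110809678-110809737: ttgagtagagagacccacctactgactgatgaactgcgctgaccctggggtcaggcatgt

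Levels below are log2 processed signals minus the 75th percentile of the array, so 0 is the level of the 75th percentile spot. A gene is represented by its brightest probe, a difference is transgenic minus wild type with its SE from the fit over all features, and each group has 2 arrays. Levels of different genes come from different probes and are not set against each other.

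Of the ligands, Igf2, the fetal insulin-like growth factor, was not well above background on any array with its only probe (chr7:149839661-149839720, mm9). Its readings were -5.24 and -5.75 on the wild-type arrays and -6.54 and -4.81 on the transgenic arrays. No fold is given for it.

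Dlk1, a membrane-bound EGF-repeat protein that is shed as a brake on adipogenesis, read -3.54 and -2.98 on the wild-type arrays and -2.47 and -2.18 on the transgenic arrays (probe chr12:110698721-110698781). Both transgenic arrays lay above both wild-type arrays, and the first of the wild-type readings was not well above background. The log2 difference was 0.93 ± 0.29, or 1.91-fold, with 1 of the 2 wild-type arrays measuring the probe. With normexp background correction it was 0.19. That setting, here and below, adds an offset of 50 to every signal, which shrinks log2 differences of dim probes. The gap between the 2 wild-type arrays was 0.57. The other Dlk1 probe (chr12:110698502-110698561) was above background on no array.

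Grb10 encodes an adaptor that binds the insulin and IGF1 receptors and dampens their signal. It read 2.27 and 2.24 on the wild-type arrays and 1.15 and 1.42 on the transgenic arrays (its only probe, chr11:11833165-11833224). The transgenic arrays were both lower than the wild-type arrays, by -0.97 ± 0.12 on the log2 scale, a 1.96-fold difference. The gap within a group was at most 0.27, and the group difference was 3.59 times as large. Grb10 was the only member called lower.

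Of the cell-cycle and transcription regulators, Cdkn1c (p57), an inhibitor of cyclin-dependent kinases, read 3.58 and 3.21 in wild type and 3.08 and 3.11 in the transgenic samples (its only probe, chr7:150644753-150644812). The groups did not overlap, but the difference of -0.30 ± 0.14 was smaller than the wild-type gap of 0.37. Ndn (necdin), a MAGE-family protein that binds E2F and restrains adipogenesis, read 4.00 and 3.96 against 4.10 and 3.97 (its only probe, chr7:69493847-69493906). Its groups overlapped, with a difference of 0.05 ± 0.09.

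Plagl1 (Zac1), a zinc finger transcription factor known in mice to act on other imprinted genes, read 4.77 and 4.62 in wild type and 5.27 and 5.25 in the transgenic samples (probe chr10:12850832-12850891). The groups were apart, with a difference of 0.57 ± 0.09, or 1.48-fold, 3.72 times the larger gap within a group. Its 4 probes did not agree, and their mean differed by 0.15. The probe at chr10:12851280-12851339 differed by 0.62, the one at chr10:12848851-12848910 by 0.02, and the one at chr10:12848421-12848480 by -0.60, with the transgenic arrays at -0.34 and -0.34 below the wild-type arrays at 0.41 and 0.10. The pair with differences above 0.5 lies at the higher coordinates, towards the 3′ side of the gene on the plus strand. The sequences of that pair share most of their letters, so the pair does not give separate readings and no pattern along the gene is read from it.

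Peg3, a paternally expressed zinc finger protein linked to cell survival and to metabolic control in mice, had the largest difference of the 9 members compared. It read -0.26 and -0.33 on the wild-type arrays and 1.38 and 0.84 on the transgenic arrays (probe chr7:6658774-6658833). Both transgenic arrays were clearly above the wild-type arrays, which were 0.07 apart, while the transgenic arrays were 0.53 apart. The log2 difference was 1.41 ± 0.20, or 2.65-fold. The other Peg3 probe (chr7:6661407-6661466) gave 1.13, with -1.78 and -1.86 in wild type and -0.37 and -0.995 in the transgenic samples.

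Mest, a member of the alpha/beta-hydrolase family, read 1.09 and 1.91 on the wild-type arrays and 2.78 and 2.58 on the transgenic arrays (probe chr6:30698279-30698338, printed on 10 spots of each array). The groups were apart, by 1.18 ± 0.27 or 2.26-fold, but the wild-type arrays alone differed by 0.82. Its other probes gave 1.02 (chr6:30697385-30697444) and 0.68 (chr6:30692160-30692219), also with both transgenic arrays above both wild-type arrays.

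Neither of the noncoding RNAs, H19 and Meg3, was called. H19 read 3.85 and 3.69 in wild type and 3.79 and 4.46 in the transgenic samples on the probe shown first above. The first transgenic array lay between the wild-type arrays and the other above them, so the groups overlapped, with a difference of 0.36 ± 0.23. The 6 H19 probes above background on every array differed by 0.36 to 0.66, all positive, with transgenic array 2 the highest array on each. On 5 of these 6 both transgenic arrays exceeded both wild-type arrays, though on the probe at chr7:149761756-149761815 the first transgenic array (2.06) and the higher wild-type array (2.05) were nearly equal. The probes read the same RNA in the same samples and are not replicates.

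Meg3 read 6.66 and 7.26 in wild type and 6.83 and 7.003 in the transgenic samples on the probe used, so the transgenic arrays lay inside the wild-type range (difference -0.05 ± 0.21). The probe not used in the comparison gave -0.23, with 0.51 and 1.64 in wild type and 0.85 and 0.85 in the transgenic samples. Over all 3 Meg3 probes, of which 1 is not shown, the differences ran from -0.23 to 0.47, with 1 positive and 2 negative, so no common direction is given for Meg3. Exon annotation on mm9 was not used here, so the transcripts these probes share were not determined.

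**Figure D1:**
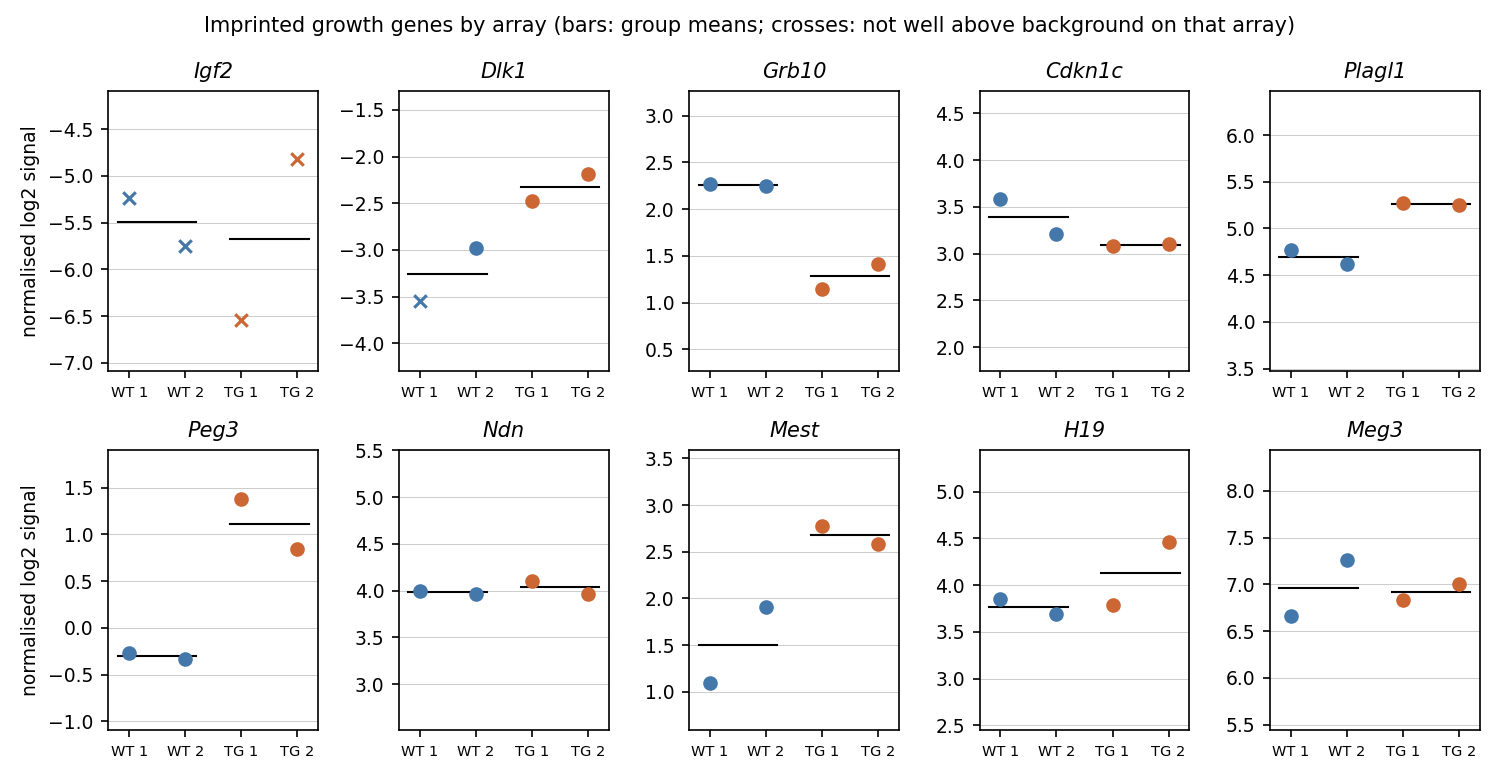
Normalised log2 signal (y axis, 0 being the array's 75th percentile) of the 10 genes on wild-type arrays WT 1 and WT 2 and transgenic arrays TG 1 and TG 2; bars are group means, crosses are readings not well above background, and every panel spans the same number of log2 units. Peg3, Dlk1, Plagl1 and Mest sit higher on both TG arrays, Grb10 and Cdkn1c lower, and the rest overlap.

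**Figure D2:**
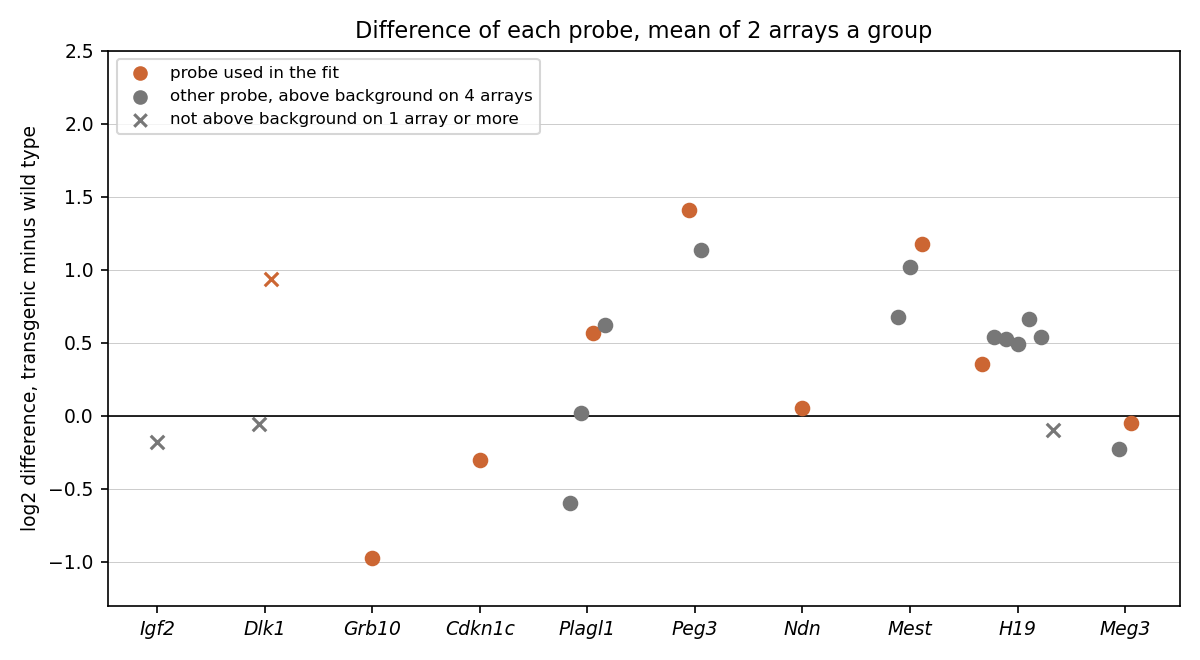
Log2 difference (transgenic minus wild type, means of 2 arrays a group) of 24 of the 25 probes, with the probe used for the gene in orange and crosses for probes not above background on at least 1 array. The Peg3, Mest and measured H19 probes all lie above 0, while the Plagl1 probes run from -0.60 to 0.62 and the Meg3 probes from -0.23 to 0.47, the probe at 0.47 not being plotted.

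Over the 9 members compared, 1 was called higher (Peg3) and 1 lower (Grb10) at an adjusted p under 0.05. Of all 24518 features 1.73% were called, 0.967% higher and 0.759% lower. At an unadjusted p under 0.05 (limma) there were 4660 of the 24518, the background for such counts below. The groups did not overlap for 6 of the 9 members, 4 higher and 2 lower, where 53.1% of all features did not overlap. The genes were chosen with this contrast known, so nothing is read from these shares. The median difference was 0.36 over the members and -0.02 over all features. Of the 9, 8 passed the filter on dim probes through both groups and Dlk1 by virtue of the transgenic arrays, a route that favours a positive difference. By parental copy, the 5 paternally expressed members compared (Peg3, Mest, Dlk1, Plagl1 and Ndn) had differences from 0.05 to 1.41, and the 4 maternally expressed members (H19, Meg3, Cdkn1c and Grb10) from -0.97 to 0.36. These ranges use the brightest probe of each gene. Other probes reached -0.60 for Plagl1, 0.66 for H19 and 0.47 for Meg3. Among the other imprinted genes described below, 11 of 20 listed as paternally expressed and 12 of 24 listed as maternally expressed had positive differences, with medians of 0.05 and 0.004. Whether the 2 kinds differ was not tested.

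The calls of Peg3 and Grb10 changed with the arrays and settings used. Peg3 was not called without wild-type array 1 (difference 1.44) or without transgenic array 1 (1.14), nor with quantile normalization (1.44), with normexp added to it (1.29), or with the mean of its probes (1.27). Grb10 was not called without transgenic array 1 (-0.84) or 2 (-1.11), nor with a shift by the array median (-1.01). Without an intensity trend in the variance model 0 of the 24518 features were called, which holds for every call given here.

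The pattern over the 4 arrays was compared between genes by the root mean square distance of their values, each centred on its own mean. Among members, Dlk1 and Mest were each other's nearest (0.23 log2 units), as were Cdkn1c and Ndn (0.22). Peg3 was nearest to Mest (0.35) and Grb10 to Cdkn1c (0.37), both farther than the other pairs. Among 13544 features with a gene symbol, the nearest to Peg3 were Ptger3 (0.033), a prostaglandin E receptor, Sgip1 (0.061) and Mdk (0.066), the growth factor midkine. H19 was nearest to Trim12c (0.058), Fam78a (0.062) and Ifi27l2a (0.062), and Dlk1 to Frmd4a (0.026), Clec4a1 (0.032) and Ercc6 (0.033). These distances rest on 4 arrays and are given as a description.

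Imprinted genes lie in clusters, so the genes with probes within 500 kb of a member's probe were counted. There were 149 such genes once members were left out, 97 were compared and 3 were called, all higher. Of all features 1.73% were called, 0.967% higher, and whether the neighbours differ from that was not tested. The 3 were Zim1 near Peg3, and the unannotated transcript EU616813 and Begain in the Dlk1 and Meg3 region. The median difference of the 97 was 0.02, against -0.02 for all features.

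Zim1, an imprinted zinc finger gene expressed from the maternal copy, starts -30.6 kb from the Peg3 probe, the minus sign marking lower coordinates. It read -4.37 and -3.32 on the wild-type arrays and -0.96 and -1.22 on the transgenic arrays. Both transgenic readings were above both wild-type readings, of which only 1 was well above background. The fitted difference was 2.75 ± 0.39 (limma, adjusted p = 0.0458), or 6.75-fold. With each wild-type reading taken at no less than the lowest signal among well-measured probes of its array, the fold was 5.16. Zim1 entered the comparison through the transgenic arrays alone, so a positive difference was favoured. It was called in 8 of 11 settings with all arrays. The call was lost with quantile normalization (2.77) and with a shift by the array median (2.72), and the difference was 1.07 with normexp background correction. Without transgenic array 1 or 2 it was not called either (2.63 and 2.88). Zim3, at 255 kb, differed by 0.43 (adjusted p = 0.476). Peg3os, a transcript antisense to Peg3 with a probe 1.42 kb away, read -5.59 and -5.18 in wild type, neither well above background, and -3.73 and -4.52 in the transgenic samples, and was not called (1.26 ± 0.42, adjusted p = 0.207).

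Around Grb10, 6 neighbours were compared, none called by limma and 2 at an unadjusted p under 0.05, with a median difference of -0.56. The imprinted genes among them were both lower in the transgenic samples without passing the threshold. Ddc, encoding aromatic amino acid decarboxylase, at -119 kb, differed by -1.10 ± 0.18 (adjusted p = 0.0591), with 1.48 and 1.09 in wild type and 0.05 and 0.33 in the transgenic samples. Cobl, an actin nucleator, at 304 kb, differed by -1.58 ± 0.36 (adjusted p = 0.113). Its wild-type values of -0.79 and -1.76 were far apart.

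In the Dlk1 and Meg3 region, EU616813 lay 159 kb from the Meg3 probe, read -1.53 and -1.18 in wild type and 0.33 and 0.16 in the transgenic samples, and rose by 1.602 ± 0.18 (limma, adjusted p = 0.0292). Begain, encoding a brain-enriched guanylate kinase-associated protein, lay -428 kb from the Dlk1 probe and rose by 1.18 ± 0.14 (limma, adjusted p = 0.0343), from -1.14 and -1.24 to 0.04 and -0.06. Without either transgenic array neither was called, the differences then being 1.52 and 1.69 for EU616813 and 1.13 and 1.23 for Begain. Mirg, a maternally expressed noncoding RNA 178 kb from the Meg3 probe, differed by 0.64 ± 0.16 (adjusted p = 0.126). Dio3, the deiodinase gene of the same imprinted domain, went the other way without being called (-1.37 ± 0.26, adjusted p = 0.0788). Near H19, Ins2 was little different (0.13, adjusted p = 0.713), and near Mest, Copg2, whose probe lies 0.549 kb away, differed by -0.29 (adjusted p = 0.309).

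**Figure D3:**
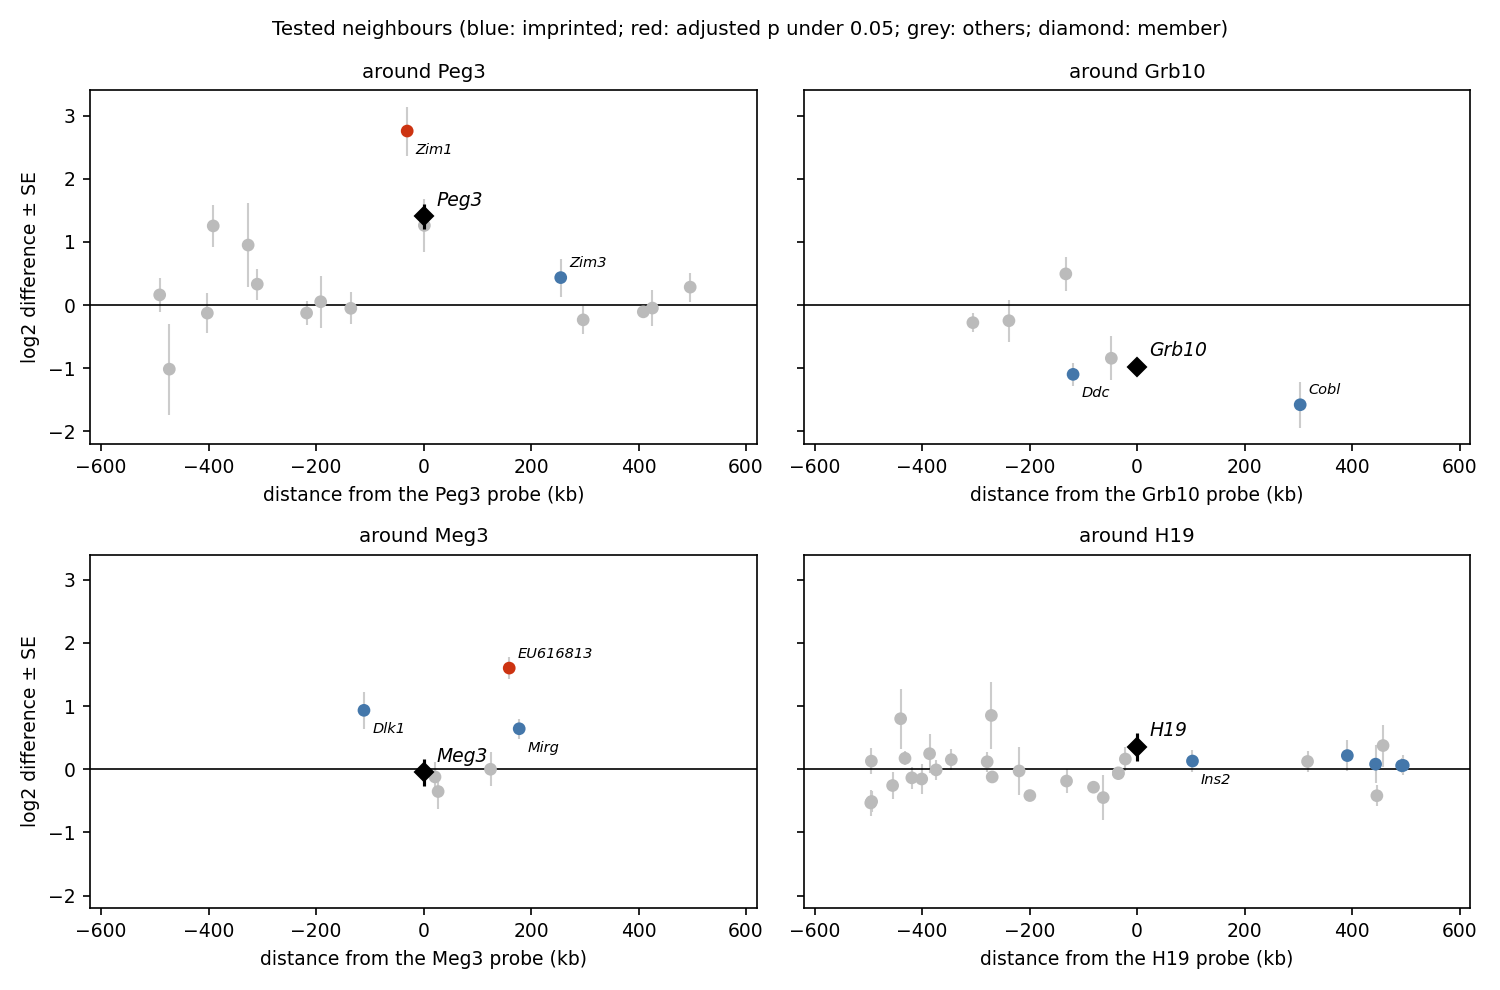
Log2 difference ± SE (transgenic minus wild type, 2 arrays a group) of genes compared within 500 kb of the Peg3, Grb10, Meg3 and H19 probes, against distance from the probe in kb, with red for called genes, blue for other listed imprinted genes and a black diamond for the member. Zim1 at 2.75 lies beside Peg3, EU616813 at 1.602 near Meg3, and the neighbours of H19 and Grb10 were not called.

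Beyond the members, 60 other imprinted genes of the mouse were listed, 56 were on the array and 44 were compared. Zim1 was called higher and 2 were called lower, where 1.73% of all features were called, 0.967% higher and 0.759% lower. The median difference was 0.02 against -0.02 for all features. Ppp1r9a, encoding the actin-binding protein neurabin, fell by 0.95 on the log2 scale (SE 0.10, limma, adjusted p = 0.0280), from 1.89 and 1.78 to 0.91 and 0.87. Htr2a, a serotonin receptor gene, fell by 0.97 (SE 0.14, limma, adjusted p = 0.0458), from -0.05 and -0.11 to -1.12 and -0.99. Without transgenic array 1 neither was called (-0.97 for Ppp1r9a and -0.91 for Htr2a), nor without transgenic array 2 (-0.93 and -1.03). Htr2a was also lost without wild-type array 1 (-0.94) and was called in 7 of 12 settings with all arrays, against 10 of 12 for Ppp1r9a. The parental copy of each gene was listed from general knowledge and was not checked in these cells. All 3 called genes belong to the 24 compared that were listed as maternally expressed. Of the 20 listed as paternally expressed none was called by limma, and the lowest adjusted p was 0.0591, for Ddc. At an unadjusted p under 0.05 were 8 of the 20, and 4660 of all 24518 features. Whether the 2 kinds differ was not tested. The groups did not overlap for 28 of the 44, 13 higher and 15 lower, where 53.1% of all features did not overlap. Whether these shares differ was not tested.

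**Figure D4:**
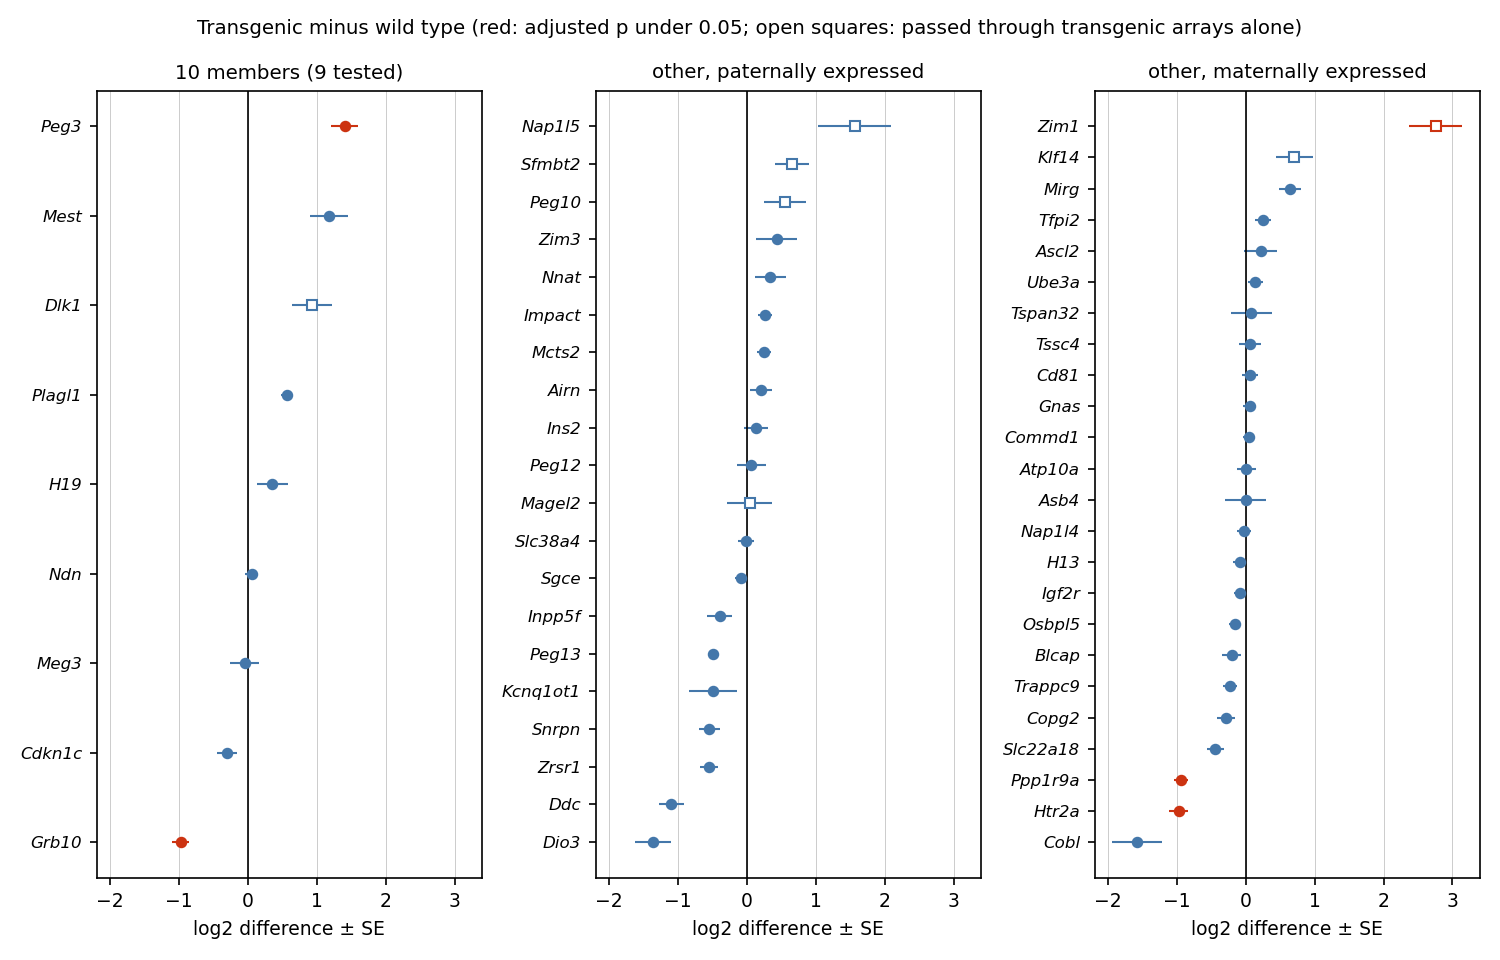
Log2 difference ± SE (x axis, transgenic minus wild type, 2 arrays a group) of the 9 members compared and of other imprinted genes, 20 listed as paternally and 24 as maternally expressed. Red marks an adjusted p under 0.05 (limma), and open squares mark genes above background on both arrays of the transgenic group alone. The other genes scatter around a median of 0.02, with 23 above 0 and 21 below.

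Genes that act with the members were counted from 5 lists. Over all 24518 features 1.73% were called by limma and 4660 were at an unadjusted p under 0.05. Of the receptors and partners of IGF2, DLK1, GRB10 and NDN, 18 of 19 were compared. Of these 2 were called higher and none lower, with a median of 0.04. Pparg, the master transcription factor of fat cell formation, rose by 1.41 ± 0.08 (limma, adjusted p = 0.0156), from 1.98 and 1.96 to 3.42 and 3.35. Ngfr, the p75 neurotrophin receptor that necdin binds, rose by 3.31 ± 0.43 (limma, adjusted p = 0.0407), from -1.95 and -0.69 to 1.74 and 2.24. Ngfr was not called without transgenic array 2 (3.06) or with quantile normalization (3.37). The receptors of the IGF axis were not called: Igf1r differed by -0.26 (adjusted p = 0.308), Insr by -0.29 (adjusted p = 0.366), and Igf2r, which clears IGF2 and is itself imprinted, by -0.09 (adjusted p = 0.635).

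Of the cell-cycle genes listed with CDKN1C, 11 of 13 were compared, none was called higher and 1 was called lower, with a median of 0.20. Besides cyclins, kinases and proliferation genes the list holds Cdkn1a and Cdkn1b, which like Cdkn1c encode inhibitors. Ccnd3, a D-type cyclin, fell by 0.64 on the log2 scale (SE 0.09, limma, adjusted p = 0.0488), from 5.66 and 5.51 to 4.97 and 4.92, and was called in 8 of 12 settings with all arrays but not without transgenic array 1 (-0.67) or 2 (-0.61). The proliferation marker Mki67 read 1.03 and 0.64 in wild type and 1.64 and 2.63 in the transgenic samples and was not called (1.30 ± 0.34, adjusted p = 0.141). None of the 9 compared genes of the postnatal growth programme (13 listed) was called by limma (3 at an unadjusted p under 0.05, median 0.23), the lowest adjusted p being 0.105 for the transcription factor gene E2f3 (0.49 ± 0.11). Among genes that set or keep imprints, 17 of 20 were compared and none was called by limma (2 at an unadjusted p under 0.05, median -0.0058), with the lowest adjusted p of 0.102 for the DNA demethylase gene Tet2 (-0.42 ± 0.09). Of 14 genes reported in mice as network targets of PLAGL1 and H19, 12 were compared and none was called by limma (2 at an unadjusted p under 0.05, median -0.09). The lowest adjusted p was 0.171 for the collagen gene Col6a2 (0.39 ± 0.12). That list includes the members Cdkn1c, Dlk1 and Igf2, of which Igf2 was not compared.

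Markers of several cell types moved with the groups, and in sorted bulk samples fewer cells of a type and less RNA per cell cannot be told apart. Summed levels here add linear signals in units of the array's 75th percentile. The background for the marker counts is again 1.73% of all 24518 features called by limma, and 4660 at an unadjusted p under 0.05. Of 8 mature adipocyte markers 6 were compared and 2 were called higher, Fabp4 (2.24 ± 0.11, limma, adjusted p = 0.0128) and Slc2a4 (1.90 ± 0.16, adjusted p = 0.0226). All 6 had a positive difference, groups that did not overlap and an unadjusted p under 0.05 (limma). Of the 6, Retn entered through the transgenic arrays alone. The summed level of the 6 was 19.8 and 23.5 in wild type and 96.8 and 104.5 in the transgenic samples, while Lep was above background on no array. Fabp4 alone made up 95.2% to 96.7% of that sum, and the rest summed to 0.900 and 1.11 against 3.20 and 4.06. The median difference of the 6 was 2.07. Of the 11 progenitor markers 2 were called lower, Cd24a (-1.58 ± 0.11, limma, adjusted p = 0.0162) and Pi16 (-1.16 ± 0.15, adjusted p = 0.0384). The median difference was -0.23. Differences were negative for 7 and positive for 4, Thy1 (0.61), Pdgfrb (0.40), Lum (0.36) and Pdgfra (0.08). At an unadjusted p under 0.05 (limma) were 8 of the 11, in both directions. The sum was 3595 and 2963 against 2464 and 2439. Dcn made up 29.9% to 35.9% of that sum, and the rest summed to 2400 and 2078 against 1586 and 1564. Without transgenic array 1 or 2 neither Slc2a4 (2.01 and 1.80) nor Pi16 (-1.24 and -1.08) was called.

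Macrophage and myeloid markers were called higher in 6 of 11 compared (14 listed): Cd74, Mrc1, Lyz2, C1qb, Ptprc and Cd14. The median difference was 1.82, and 9 of the 11 were at an unadjusted p under 0.05. Of the 11, 5 entered through the transgenic arrays alone, Mrc1, Lyz2 and Ptprc among them, which favours a positive difference. With those genes at their bounds the median was 1.45. Normexp background correction with its offset of 50 gave 1.33 for Mrc1 (2.97 otherwise), 1.17 for Lyz2 (4.39), 1.08 for C1qb (1.82) and 0.47 for Ptprc (1.90). Ptprc was then not called. The shares of the offset and of the correction itself in these changes were not separated. Quantile normalization ended the calls of Ptprc (1.91) and Cd14 (0.88). Of the 6, the call of Cd74 alone stood when either transgenic array was left out. Lyz2 and Adgre1 were above background on no wild-type array and Fcgr1, Cd163 and Cx3cr1 on no array at all. The summed level was 57.8 and 57.1 against 63.7 and 61.6, of which Itgam made up 71.9% to 85.1%. Without Itgam it was 10.67 and 8.49 against 16.6 and 17.3.

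Of 9 smooth muscle and pericyte markers 3 were called higher (Acta2, Rgs5 and Notch3) and 1 lower (Kcnj8), 7 were at an unadjusted p under 0.05, and the median difference was 0.86. Rgs5 entered through the transgenic arrays alone and was not called with normexp (0.87, against 2.73). Neither Rgs5 (2.64 and 2.82) nor Kcnj8 (-1.53 and -1.24) was called without transgenic array 1 or 2. The sums were 16.9 and 17.0 against 21.6 and 22.0. Of 11 endothelial markers 1 was called higher, Egfl7, 8 were at an unadjusted p under 0.05, and the median difference was 0.93, or 0.74 with the 4 that entered through the transgenic arrays alone at their bounds. Egfl7 was not called without transgenic array 1 (2.03) or 2 (2.12). Differences were positive for 9 of the 11 endothelial markers and negative for 2, Tek (-0.51 ± 0.10) and Kdr (-0.28 ± 0.25). Tek was among the 8 at an unadjusted p under 0.05 (limma). The endothelial sums were 29.9 and 28.1 against 33.4 and 29.7, of which Plvap made up 23.8% to 42.3%. Without Plvap they were 22.8 and 18.3 against 19.2 and 18.2. Of 8 Schwann cell markers 5 were compared and 1 was called lower, Mbp, with sums of 8.52 and 7.70 against 8.44 and 8.14 and a median difference of -0.10. Mbp was lost with quantile normalization (-0.59) and without wild-type array 1 (-0.62) or transgenic array 1 (-0.57) or 2 (-0.69).

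Of 10 skeletal muscle and satellite cell markers 4 were compared and none was called by limma (1 at an unadjusted p under 0.05, lowest adjusted p = 0.0870), with sums of 1.52 and 1.89 against 2.01 and 1.30, and Pax7, Myf5, Myod1 and Ckm were above background on no array. Of 6 epithelial markers 1 was compared and not called (adjusted p = 0.728), with sums of 0.051 and 0.082 against 0.079 and 0.074, and Epcam, Krt8, Krt18 and Cdh1 were above background on no array. The part of these cell types in the differences of the imprinted genes was not tested.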

How the data were processed

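Cy3-labelled RNA of the 4 samples, 2 in each group, was read on single-colour Agilent arrays, per the labels. The file headers name Agilent Feature Extraction 10.7.3.1, array design 028005 and mm9 for the probe coordinates. With 1 slide and 1 scan for all 4 arrays, no batch could be fitted. The processed intensity of each spot, as deposited by the authors, had its background subtracted and a spatial trend removed, per the file headers. An alternative, normexp, used the raw intensities and added an offset of 50 after background correction. The 75th percentile signals of the processed intensities were 239 to 354, so the offset shrinks log2 differences of dim probes. The authors also deposited a series table of log2 values, made by steps not given in the sources used here. Once the scanner values were shifted by the 75th percentile and each probe centred, each of its columns matched them with a correlation of at least 0.9998. Its column medians were 0.193, -0.0209, -0.0454 and 0.0191, and its scale and centring are known from that match alone.

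Control and outlier spots were dropped, a probe's spots averaged on the log2 scale, and the 75th percentile of every array subtracted. RefSeq accessions (assembly GRCm38.p6, used for names only) named 26582 probes, 2892 of them differently from the design. A gene entered by its brightest probe if this was well above background on both arrays of either group. The groups were compared by lmFit and eBayes of limma 3.58.1 (R 4.3.3), 2-sided, with an intensity trend, 2 residual and 3.34 prior degrees of freedom, and Benjamini-Hochberg adjustment over 24518 features. An adjusted p under 0.05 was a call, and the median SE was 0.18. The number of arrays limits the precision.

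The members and lists were chosen with earlier results of these data known. Named were all members with every probe (1 probe is given only within its gene's range), the called genes of each list (or the one with the lowest p), called neighbours within 500 kb, and the nearest patterns. The other uncalled genes, such as Igf1r, Mki67 and Peg3os, were picked after their values were seen.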

Additional observations from a re-analysis of the deposited data

How the results depend on the processing

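The comparison was repeated under 11 planned settings with all arrays, 1 setting added after seeing the data (each noncoding interval entering once, 511 features, 2 members and 3 other imprinted genes called) and without each array in turn. Against 423 features called, no filter on dim probes gave 695, the replicate block 774, no intensity trend 0 (4124 at an unadjusted p under 0.05), and leaving out 1 array 90 to 3998. Against 2 members called, the median shift and the mean of a gene's probes each gave 1, no intensity trend 0 and normexp background correction 3. Against 3 other imprinted genes, normexp background correction gave 5, quantile normalization 1, the median shift 1, no intensity trend 0, the replicate block 6, and leaving out 1 array 0 to 9.

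Peg3 stayed between 1.27 and 1.44 with all arrays and was called in 8 of 12 settings; Grb10 stayed between -1.01 and -0.90 and was called in 10 of 12. Plagl1 ran from 0.15, for the mean of its probes, to 0.63 and was called in 5. Dlk1 ran from 0.19, with normexp, to 0.97, and Mest from 0.96 to 1.21, neither called in any setting with all arrays. Without wild-type array 2 the differences were 1.22 for Dlk1, 1.59 for Mest and -0.49 for Cdkn1c. The group then held wild-type array 1 alone, on which the Dlk1 probe was not well above background. H19 ran from 0.02, without transgenic array 2, to 0.69, without transgenic array 1. Meg3 changed sign with normexp (0.018), quantile normalization (0.11), both together (0.12) and the mean of its probes (0.064), and ran from -0.35 to 0.25 when 1 array was left out, positive without wild-type array 2 (0.25) and without transgenic array 1 (0.039). Ndn turned to -0.014 without transgenic array 1. The cause was not tested. Same-numbered arrays did not deviate together (correlation 0.0032 over 24518 features), so the labels' replicate numbers were not taken as pairs. Signal over background limits Igf2 and Dlk1 most.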
